A study of Homo sapiens with 9 samples.

Results

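The genes described here are 10 that are widely read as targets or feedback partners of the transcriptional coactivators YAP and TAZ, namely CTGF, CYR61, ANKRD1, AMOTL1, AMOTL2, F3, AXL, LATS2, AJUBA and TEAD1. They were taken by symbol from a table of 58735 genes, where CTGF and CYR61 stand under these older symbols, and each matched 1 row. RNA was sequenced in 9 bulk libraries of FaDu, an established cell line from a human squamous carcinoma of the hypopharynx. Control libraries (NC_NC, genotype given as WT), libraries labelled with knockdown of AMIGO2 (KD_NC) and libraries labelled with knockdown of AMIGO2 plus overexpression of CAPN2 (KD_OE) each numbered 3, and none had a treatment. AMIGO2 is a cell-surface leucine-rich repeat protein and CAPN2 the large subunit of the protease calpain-2. How the knockdown and overexpression were made, and whether the cells were single clones, is not given in the sources used here. All 3 groups come from 1 cell line, and the replicates are given as biological.

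YAP and TAZ (the latter encoded by WWTR1) carry no DNA-binding domain of their own and act on genes through the TEAD factors. In the Hippo pathway the kinases MST1 and MST2 (genes STK4 and STK3) activate LATS1 and LATS2, which phosphorylate YAP and TAZ and keep them out of the nucleus, while NF2, angiomotins and LIM proteins such as AJUBA tune the kinases. In epithelial and squamous cells the pathway responds to cell density, adhesion and cytoskeletal tension, and several of its targets, such as LATS2 and AMOTL2, feed back on it.

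CTGF and ANKRD1 are standard TEAD targets and F3 is a known AP-1 target, so the bases just upstream of these genes are shown. RefSeq promoters on GRCh38.p14 were matched for 8 of the 10 genes (CYR61 and TEAD1 were not matched). The window searched was the 250 bases before each transcript start, and the part of it outside the gene as bounded in the deposited table is printed 5′ to 3′ in the direction of transcription. Capitals mark the TEAD motif GGAATG and the AP-1 motif TGANTCA, each searched on both strands, which do not overlap each other here.
CTGF, chr6:131951374-131951622, minus strand: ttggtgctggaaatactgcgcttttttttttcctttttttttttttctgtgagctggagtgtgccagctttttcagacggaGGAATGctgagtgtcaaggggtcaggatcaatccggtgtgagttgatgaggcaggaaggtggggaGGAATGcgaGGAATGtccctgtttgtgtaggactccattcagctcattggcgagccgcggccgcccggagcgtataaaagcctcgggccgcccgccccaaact
ANKRD1, chr10:90921277-90921337, minus strand: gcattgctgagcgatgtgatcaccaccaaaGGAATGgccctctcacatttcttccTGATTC
F3, chr1:94541801-94542009, minus strand: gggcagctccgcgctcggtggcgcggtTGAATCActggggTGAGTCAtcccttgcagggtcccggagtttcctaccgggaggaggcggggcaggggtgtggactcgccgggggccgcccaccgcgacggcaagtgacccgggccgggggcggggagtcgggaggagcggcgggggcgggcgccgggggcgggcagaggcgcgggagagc

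The CTGF window held 3 matches of GGAATG, beginning 169, 104 and 95 bases before the start. ANKRD1 held 2 in its whole window, at 220 and 128 bases, and 1 match of the AP-1 motif at 195 bases, which runs past the end of the printed part. F3 held 2 AP-1 matches, at 223 and 210 bases, and no GGAATG. One of the 2 annotated starts of AMOTL2, of AXL and of AJUBA had a single GGAATG match. In each case the window of that start lay wholly inside the gene, and the window of the other start had neither motif. AMOTL1 and LATS2 had neither motif. The only AMOTL1 window lay wholly inside the gene, so the bases before the gene as bounded in the deposited table were not searched. Of 35116 promoter windows of this length, 11.9% held at least 1 GGAATG, 0.94% at least 2 and 29 windows (0.0826%) at least 3. At least 1 TGANTCA was held by 6.57% and at least 2 by 0.402%. These matches describe letters in a window and are not measured binding sites.

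Library totals ran from 15158607 to 19737562 counts, and 3 counts corresponded to 0.149 to 0.203 CPM (a gene's counts scaled to a common library total). Levels below are CPM scaled with edgeR's trimmed mean of M values (TMM), given as mean ± SD over 3 libraries. The knockdown was not visible in the RNA: AMIGO2 stood at 29.4, 26.1 and 27.1 CPM in control and at 24.4, 31.2 and 27.3 CPM in the KD_NC libraries (edgeR adjusted p = 0.971), and at 42.8, 35.2 and 38.7 CPM in KD_OE. Under all 16 alternatives AMIGO2 was called higher in KD_OE than in control (log2 0.42 to 0.60) and than in KD_NC (log2 0.39 to 0.62). CAPN2 stood at 462 ± 13.8 CPM in control, 417 ± 20.3 CPM in KD_NC and 498 ± 1.28 CPM in KD_OE. In KD_NC against control CAPN2 was not called, and passed as lower after a correction for GC content and length (log2 -0.21, edgeR adjusted p = 0.0125). The 1.19-fold difference of KD_OE with KD_NC (edgeR adjusted p = 0.012) was lost without a filter on low counts (edgeR adjusted p = 0.0871) and without the first KD_OE library (edgeR adjusted p = 0.0601). The difference of KD_OE with control was not called (edgeR adjusted p = 0.254), and passed when those 2 groups were fitted alone (edgeR adjusted p = 0.0498) or with upper-quartile factors (edgeR adjusted p = 0.0278). The KD_NC libraries were the least alike, with a mean chi-square per gene between library pairs of 20.9 to 21.5, against 2.69 to 5.04 within control and 3.01 to 7.52 within KD_OE, while the fit took 1 spread per gene from all 9. KD_NC and KD_OE are used as names of labelled libraries throughout, not as a measured knockdown or overexpression. All 8 keratinocyte markers were above 1 CPM in each group, and their summed level was 7786 to 8288 CPM in control, 4082 to 5177 CPM in KD_NC and 4459 to 5086 CPM in KD_OE. KRT5 carried most of that difference (4429 ± 133, 1205 ± 180 and 1613 ± 121 CPM). In KD_NC against control 5 of the 8 were called lower, KRT17 and EPCAM were not called, and CDH1 was called higher (380 ± 6.39, 454 ± 25.6 and 613 ± 15.8 CPM). Of 8 fibroblast, 6 endothelial and 6 immune markers, 1, 2 and 1 were above 1 CPM in each group, and LUM, KDR and EMCN had no count in any library. Their summed levels, in the order control, KD_NC, KD_OE, were 8.24 to 9.77, 11.1 to 14.1 and 13.5 to 15.5 CPM for fibroblast markers, 17.6 to 22.4, 43.3 to 49.4 and 16.2 to 16.5 CPM for endothelial markers, and 14.7 to 18.5, 18.8 to 25.1 and 5.61 to 9.04 CPM for immune markers. CDH5 carried most of the endothelial sum (14.8 ± 2.40, 43.1 ± 2.92 and 13.6 ± 0.481 CPM) and CD14 most of the immune sum (16.0 ± 2.14, 22.4 ± 3.55 and 7.32 ± 1.72 CPM), and both had the order of means of CTGF and CYR61 below. VWF, the other endothelial marker above 1 CPM, did not (5.66 ± 0.563, 2.44 ± 0.353 and 2.61 ± 0.295 CPM). Unlike CTGF and CYR61, CDH5 in KD_OE (13.7, 14.1 and 13.1 CPM) lay within the range of the control libraries (17.0, 15.3 and 12.2 CPM). The part of these markers in the results was not tested. In bulk RNA, fewer cells of a type and less RNA per cell cannot be told apart.

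Of the 10 genes, 9 passed the filter on low counts and were tested. Against control libraries, 5 of these were called higher in the KD_NC libraries (CTGF, CYR61, F3, AXL and AMOTL2) and 1 lower (AJUBA), at an adjusted p under 0.05 in edgeR's quasi-likelihood test. Among all 16812 genes tested, 34.6% were called in this comparison, 16.0% higher and 18.5% lower. In the KD_OE libraries against the KD_NC libraries, 6 were lower (CTGF, CYR61, F3, AXL, AMOTL1 and LATS2) and 1 higher (AMOTL2), where 49.2% of all genes were called, 25.6% lower and 23.7% higher. In the same libraries against control, 3 were higher (F3, AXL and AMOTL2) and 3 lower (CTGF, CYR61 and AMOTL1), where 56.3% of all genes were called, 27.9% higher and 28.4% lower. The 6 of 9 called in this last comparison are a share close to that background. Median log2 fold changes of the 9 genes were 0.28, -0.32 and -0.22 in the order of these comparisons, against -0.01, 0.01 and 0.02 over all genes tested, and the first and last were 0.48 and -0.36 after a correction for GC content and length. The last was -0.12 with upper-quartile factors. The comparisons share libraries, so they are not independent of each other.

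**Figure D1:**
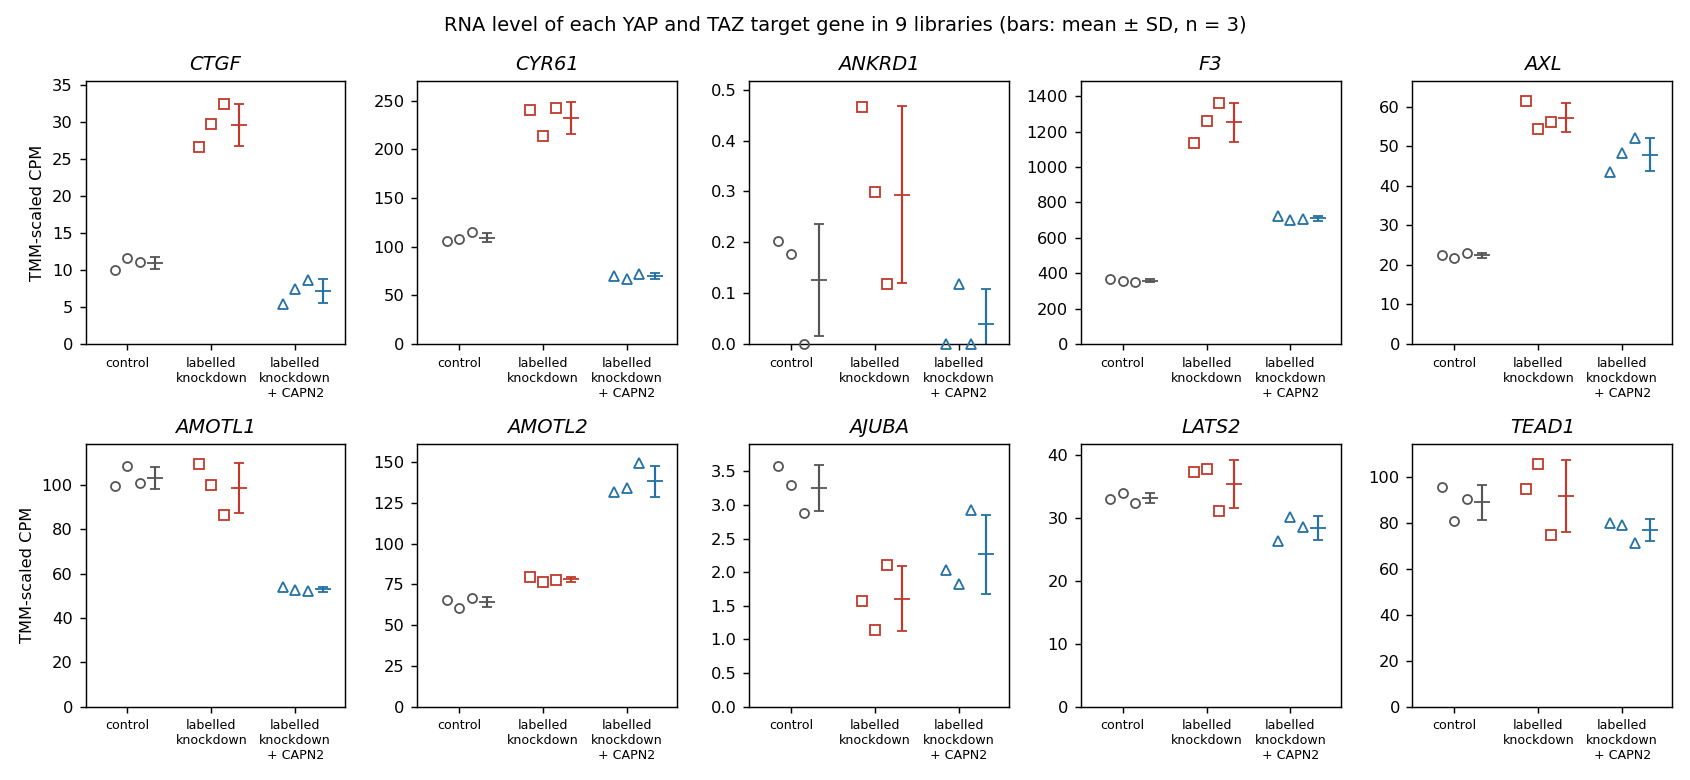
TMM-scaled CPM (vertical axis, linear, from 0) of each of the 10 genes in the control libraries (circles), the KD_NC libraries (squares) and the KD_OE libraries (triangles), with mean and SD of 3 libraries beside the points. CTGF and CYR61 were highest in KD_NC and lowest in KD_OE, F3 and AXL stayed above control in both, and ANKRD1 was at 0.465 CPM or less in every library.

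CTGF, CYR61 and ANKRD1 are the most used readouts of YAP and TAZ activity. CTGF (ENSG00000118523, chromosome 6, 131948176 to 131951373, minus strand, all member positions on GRCh38) encodes a secreted matricellular protein of the CCN family that promotes matrix deposition. It stood at 10.1, 11.7 and 11.1 CPM in control, at 26.7, 29.8 and 32.5 CPM in the KD_NC libraries, and at 5.42, 7.37 and 8.67 CPM in KD_OE. No pair of groups overlapped, with KD_NC highest and KD_OE lowest. The rise against control was 2.70-fold (log2 1.44 ± 0.144 SE, edgeR adjusted p = 5.1e-07). CTGF was 4.14-fold lower in KD_OE than in KD_NC (log2 -2.05 ± 0.150, edgeR adjusted p = 2.85e-09), and 1.53-fold lower in KD_OE than in control (log2 -0.61 ± 0.158, edgeR adjusted p = 0.00267).

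CYR61 (ENSG00000142871, chromosome 1, 85580761 to 85583962, plus strand) encodes the related CCN protein that binds integrins and stimulates adhesion and migration. Its levels were 105, 108 and 115 CPM in control, 240, 214 and 243 CPM in KD_NC and 69.9, 66.3 and 72.3 CPM in KD_OE. The 3 groups lay in the same order as for CTGF, again without overlap. CYR61 rose 2.12-fold against control (log2 1.09 ± 0.086, edgeR adjusted p = 2.16e-08), and was 3.34-fold lower in KD_OE than in KD_NC (log2 -1.74 ± 0.088, edgeR adjusted p = 1.98e-11). Against control the KD_OE libraries were 1.57-fold lower (log2 -0.65 ± 0.087, edgeR adjusted p = 3.34e-06). The direction and call of CTGF and CYR61 were the same in all 3 comparisons under all 16 alternatives run.

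ANKRD1 (ENSG00000148677, chromosome 10, 90912096 to 90921276, minus strand) encodes a nuclear and sarcomeric ankyrin repeat protein best known from heart muscle. It was barely detected in these cells and was removed by the filter on low counts. Its counts were 3, 3 and 0 in control, 8, 6 and 2 in KD_NC and 0, 2 and 0 in KD_OE, 24 in all. Only 2 libraries, both KD_NC, exceeded 3 counts. Without a filter its edgeR adjusted p was 0.546, 0.0999 and 0.484 for KD_NC against control, KD_OE against KD_NC and KD_OE against control, so no difference was detectable at this depth.

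F3 and AXL encode cell-surface proteins. F3 (ENSG00000117525, chromosome 1, 94529225 to 94541800, minus strand) encodes tissue factor, the receptor for coagulation factor VII that starts the clotting cascade. It was the most abundant of the 10 genes, at 366, 358 and 348 CPM in control, 1138, 1262 and 1360 CPM in KD_NC and 725, 700 and 706 CPM in KD_OE. The groups did not overlap, and the KD_OE libraries lay between the others. F3 rose 3.51-fold in the KD_NC libraries (log2 1.81 ± 0.088, edgeR adjusted p = 3.15e-11). It was 1.76-fold lower in KD_OE than in KD_NC (log2 -0.82 ± 0.085, edgeR adjusted p = 2.68e-07) and still 1.99-fold above control (log2 0.99 ± 0.086, edgeR adjusted p = 1.4e-08).

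AXL (ENSG00000167601, chromosome 19, 41219203 to 41261766, plus strand) encodes a receptor tyrosine kinase of the TAM family, whose ligand is GAS6. It stood at 22.5, 21.7 and 23.0 CPM in control, 61.3, 54.2 and 56.1 CPM in KD_NC and 43.5, 48.2 and 51.9 CPM in KD_OE. Both labelled sets lay above every control library, and did not overlap each other. AXL rose 2.55-fold against control in the KD_NC libraries (log2 1.35 ± 0.102, edgeR adjusted p = 1.19e-08) and 2.14-fold in KD_OE (log2 1.10 ± 0.103, edgeR adjusted p = 3.77e-08). The 1.2-fold difference between those 2 sets (log2 -0.26 ± 0.098, edgeR adjusted p = 0.0359) did not pass with the replicate number as a block (edgeR adjusted p = 0.0583), with upper-quartile factors (0.106), in the fit to the 2 groups alone (0.0693), without the first KD_NC library (0.0844), or without the first (0.121) or second (0.0873) KD_OE library.

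**Figure D2:**
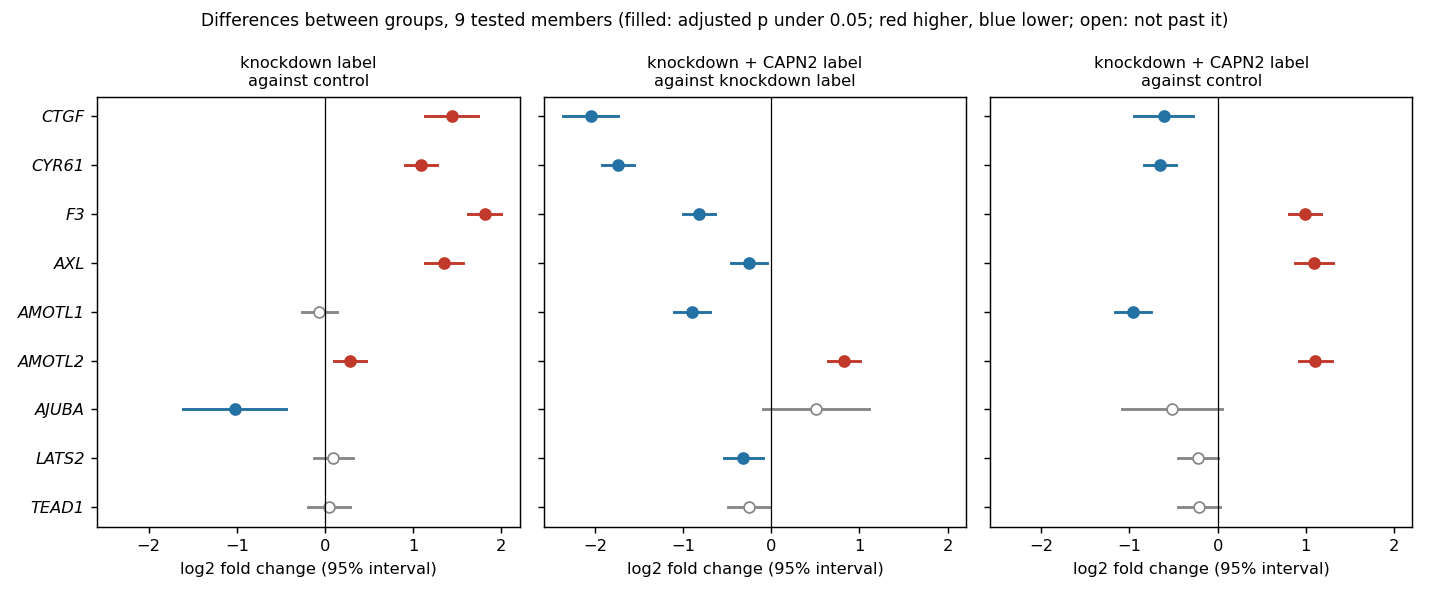
Log2 fold changes (horizontal axis) of the 9 tested genes with 95% intervals from the edgeR fit, in 1 panel per comparison. CTGF and CYR61 crossed from higher to lower between the left and right panels, F3 and AXL were higher in both, and AMOTL2 was higher in all 3 panels.

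The angiomotin-like genes AMOTL1 and AMOTL2 encode junction proteins that bind YAP and hold it in the cytoplasm, and they moved in opposite directions in the KD_OE libraries. AMOTL2 (ENSG00000114019, chromosome 3, 134355874 to 134375479, minus strand) stood at 65.2, 60.7 and 66.3 CPM in control, 79.5, 76.7 and 77.9 CPM in KD_NC and 131, 134 and 149 CPM in KD_OE. The groups rose in that order without overlap. The first step was 1.22-fold (log2 0.28 ± 0.088, edgeR adjusted p = 0.0168), a call lost without the second control library (edgeR adjusted p = 0.0912). The difference between the 2 labelled sets was 1.77-fold (log2 0.83 ± 0.087, edgeR adjusted p = 3.08e-07), and that of KD_OE with control 2.16-fold (log2 1.11 ± 0.088, edgeR adjusted p = 4.11e-09).

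AMOTL1 (ENSG00000166025, chromosome 11, 94706431 to 94876753, plus strand) stood at 99.4, 109 and 101 CPM in control, 109, 100 and 86.7 CPM in KD_NC and 54.0, 52.5 and 52.3 CPM in KD_OE. The control and KD_NC sets overlapped, and every KD_OE library lay below both. AMOTL1 was 1.86-fold lower in KD_OE than in KD_NC (log2 -0.90 ± 0.096, edgeR adjusted p = 3.74e-07) and 1.95-fold lower than control (log2 -0.96 ± 0.096, edgeR adjusted p = 9.26e-08). The KD_NC set differed from control by a log2 fold change of -0.06 (95% interval -0.26 to 0.13, edgeR adjusted p = 0.641).

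The 3 remaining genes act inside the pathway. AJUBA (ENSG00000129474, chromosome 14, 22971174 to 22982642, minus strand) encodes a LIM protein that restrains the LATS kinases at junctions. It was scarce, with 23 to 56 counts per library, at 3.58, 3.29 and 2.89 CPM in control, 1.57, 1.14 and 2.11 CPM in KD_NC and 2.03, 1.83 and 2.93 CPM in KD_OE. Control lay above the KD_NC set without overlap, while the third set overlapped both. AJUBA fell 2.03-fold in the KD_NC libraries (log2 -1.02 ± 0.279, edgeR adjusted p = 0.00783), a call lost without the second of them (log2 -0.79, edgeR adjusted p = 0.0508). In the KD_OE libraries the log2 fold change was -0.52 against control (95% interval -1.09 to 0.05, edgeR adjusted p = 0.11) and 0.50 against the KD_NC set (-0.10 to 1.11, edgeR adjusted p = 0.157). The former passed without the third KD_OE library (log2 -0.75, edgeR adjusted p = 0.0474).

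LATS2 (ENSG00000150457, chromosome 13, 20973032 to 21061547, minus strand) encodes the kinase that phosphorylates YAP and TAZ and is itself a feedback target. It stood at 33, 34.0 and 32.4 CPM in control, 37.4, 37.8 and 31.1 CPM in KD_NC and 26.4, 30.2 and 28.6 CPM in KD_OE. The control and KD_NC sets overlapped, and the KD_OE libraries were below every other library. LATS2 was 1.25-fold lower in KD_OE than in KD_NC (log2 -0.32 ± 0.106, edgeR adjusted p = 0.0179), a call lost with upper-quartile factors (edgeR adjusted p = 0.0521) and without the first KD_OE library (0.0596). Against control the log2 fold change was 0.10 in the KD_NC set (95% interval -0.13 to 0.32, edgeR adjusted p = 0.514). It was -0.22 ± 0.107 in the KD_OE set (edgeR adjusted p = 0.0841), which passed in the fit to those 2 groups alone (edgeR adjusted p = 0.0317) and without the third KD_NC library (0.0367).

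TEAD1 (ENSG00000187079, chromosome 11, 12674591 to 12944483, plus strand) encodes a DNA-binding partner of YAP and TAZ. Its levels were 95.6, 80.7 and 90.5 CPM in control, 94.6, 105 and 74.5 CPM in KD_NC and 80.0, 79.2 and 71.3 CPM in KD_OE. The KD_NC set overlapped both others, with the third KD_NC library the lowest of the set, as it also was for AMOTL1 and LATS2, while every control library lay above the KD_OE libraries. None of the 3 comparisons was called: log2 fold changes were 0.04 (95% interval -0.19 to 0.28), -0.25 (-0.49 to -0.02) and -0.21 (-0.45 to 0.03), with edgeR adjusted p of 0.805, 0.0716 and 0.123. After correction for GC content and length the latter 2 passed (log2 -0.38, edgeR adjusted p = 0.000356, and log2 -0.49, edgeR adjusted p = 1.61e-05). They also passed without the third KD_NC library (log2 -0.39, edgeR adjusted p = 0.00358, and -0.22, edgeR adjusted p = 0.0398). The second passed without a filter as well (log2 -0.29, edgeR adjusted p = 0.0234), and the last in the fit to those 2 groups alone (-0.20, edgeR adjusted p = 0.0222).

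Levels of different genes were compared as CPM per kilobase of the gene length in the deposited table. Counts per gene do not show which transcripts were expressed. Their length may differ from the length used, and the SDs below do not cover that. In control the order was F3 (124), CYR61 (44.5), AMOTL2 (10.7), AMOTL1 (10.3), TEAD1 (8.65), LATS2 (5.94), CTGF (4.68), AXL (4.34), AJUBA (0.544) and ANKRD1 (0.0639). AMOTL2 and AMOTL1, with SDs of 0.494 and 0.495 CPM per kilobase, did not differ beyond their spread, nor did CTGF and AXL, with SDs of 0.345 and 0.134. In KD_NC, CTGF (12.7 ± 1.23) stood above AMOTL1 (9.84 ± 1.14) and TEAD1 (8.90 ± 1.52) in every library, while AXL (11.1 ± 0.711) and AMOTL1 overlapped. In KD_OE, AMOTL2 (23.1) stood next below CYR61 (28.3), and CTGF (3.06) was above AJUBA (0.379) and ANKRD1 (0.0199) alone. Exons of CTGF, AMOTL1, AMOTL2, AXL and AJUBA overlap those of another annotated gene, which had 20 counts or fewer in all 9 libraries together.

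Each tested gene was also compared with all protein-coding genes of at least 5 CPM by the root mean square difference of log2 CPM over the 9 libraries, each gene centred on its control mean. CTGF was nearest to ARHGDIB (0.244) and TM4SF1 (0.259), and CYR61 was the nearest of the other members at 0.272, behind 4 of 10364 candidate genes. CYR61 was nearest to TTC9 (0.133) and RFLNB (0.170), F3 to MPZL3 (0.0934) and CXCL1 (0.130), and AXL to IER3 (0.0859) and DUSP1 (0.111). F3 and AXL were each other's nearest member at 0.297, but 27 candidates lay nearer to F3 and 78 nearer to AXL. LATS2 and TEAD1 were so at 0.118, with 94 candidates nearer to LATS2 and 25 nearer to TEAD1. For CYR61, 16 candidates lay nearer than CTGF, its nearest member. For AJUBA, 4415 lay nearer than AMOTL1, its nearest member. AMOTL2 was nearest to PTPRJ (0.0666) and TNFAIP3 (0.0761) and AMOTL1 to TTF2 (0.0884) and NEK6 (0.0898), while 3404 and 3429 candidates lay nearer to them than any other member did. AJUBA was nearest to BDKRB1 (0.131) and SLC16A13 (0.208), LATS2 to FOXJ2 (0.0541) and BNC1 (0.0544), and TEAD1 to POU2F1 (0.0561) and XPO4 (0.0588). These distances are descriptions over 9 libraries that share their depth and scaling, with no test.

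The other genes of the pathway were read from lists. Of 15 further YAP and TAZ targets, all of which were tested, 5 were called higher and 5 lower in the KD_NC libraries against control, where 34.6% of all genes were called. In the KD_OE libraries, 6 were higher and 5 lower against the KD_NC set (49.2% of all genes called), and 8 higher and 3 lower against control (56.3% of all genes called). Median log2 fold changes were -0.12, 0.22 and 0.25. The first was -0.20 without the first KD_NC library and -0.08 with upper-quartile factors. NT5E, which encodes the ectonucleotidase CD73, had the order of CTGF and CYR61, at 6.15, 7.65 and 8.35 CPM in control, 39.0, 35.6 and 39.6 CPM in KD_NC and 4.13, 4.83 and 4.83 CPM in KD_OE. It rose 5.14-fold against control (edgeR adjusted p = 2.32e-10) and was 8.26-fold lower in KD_OE than in KD_NC (edgeR adjusted p = 6.63e-12).

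TGFB2, which encodes a transforming growth factor, and IGFBP3, which encodes a carrier of insulin-like growth factors, had the order of F3. TGFB2 rose 6.24-fold, from 1.82 ± 0.595 to 11.3 ± 2.19 CPM (edgeR adjusted p = 5.42e-08), and IGFBP3 rose 3.41-fold, from 94.7 ± 6.82 to 323 ± 22.0 CPM (edgeR adjusted p = 5.8e-11). Against control they were still 1.83-fold and 2.50-fold higher in the KD_OE libraries (edgeR adjusted p = 0.00558 and 4.91e-10). DOCK5, which encodes an exchange factor for Rac, was higher at each step as AMOTL2 was (106 ± 7.08, 140 ± 21.9 and 244 ± 6.42 CPM), and ASAP1 was 1.57-fold and 1.54-fold above control in the 2 sets.

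Other targets went the opposite way in the KD_NC libraries. PTPN14, which encodes a phosphatase that binds and restrains YAP, fell 1.49-fold against control (edgeR adjusted p = 8.77e-05) and was 1.98-fold higher in KD_OE than in KD_NC (edgeR adjusted p = 5.99e-08). GADD45A, a stress-response gene, fell 1.36-fold and was 2.09-fold higher in the same comparisons (edgeR adjusted p = 0.00479 and 2.65e-07). The call of PTPN14 above control in KD_OE was lost after correction for GC content and length (log2 0.14, edgeR adjusted p = 0.0667). FJX1 was lower at each step, at 53.3 ± 5.98, 37.3 ± 6.65 and 18.0 ± 2.50 CPM. FOXF2 was 2.21-fold below control in the KD_OE libraries (edgeR adjusted p = 1.44e-05). Its KD_NC libraries overlapped control, and the call there (log2 -0.44, edgeR adjusted p = 0.0434) was lost in 11 of 16 alternatives, the block included (edgeR adjusted p = 0.0652).

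**Figure D3:**
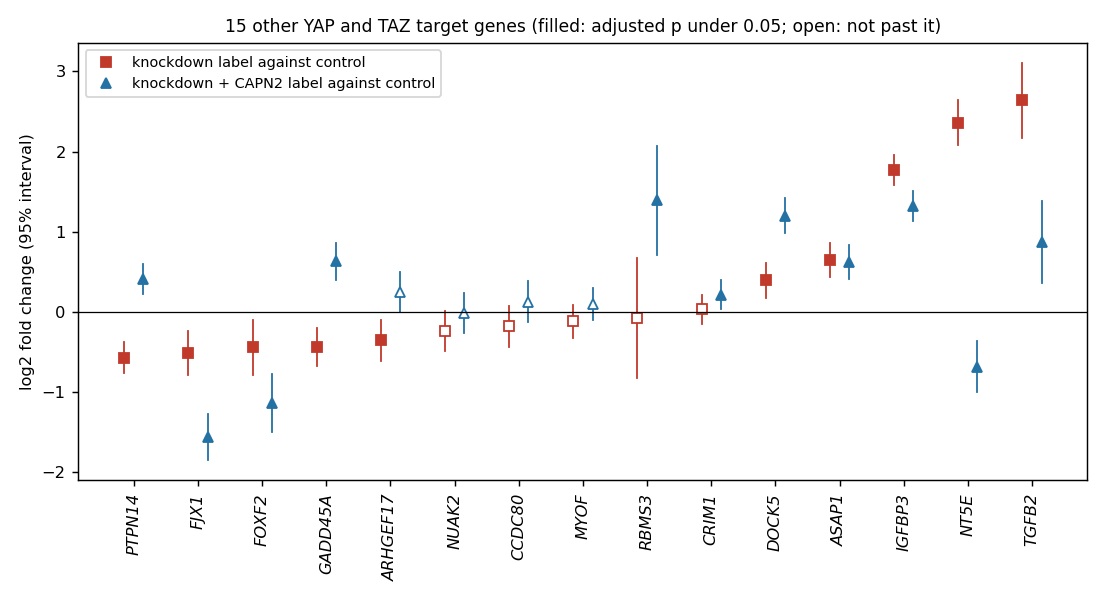
Log2 fold changes against control (vertical axis) with 95% intervals for 15 other YAP and TAZ targets, ordered by the change in KD_NC (squares), with KD_OE as triangles. TGFB2, NT5E and IGFBP3 stand highest in KD_NC, and NT5E is below 0 in KD_OE.

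Of 29 further genes of the Hippo pathway 28 were tested. Against control, 14 were called higher and 4 lower in the KD_NC libraries (34.6% of all genes called), with a median log2 fold change of 0.30. In the KD_OE libraries, 4 were higher and 11 lower against the KD_NC set (median -0.21), and without the second KD_OE library 1 was higher and 8 lower. Against control 9 were higher and 8 lower in KD_OE (median 0.11, 0.21 with upper-quartile factors and -0.05 after correction for GC content and length). The called shares in both KD_OE comparisons were close to the 49.2% and 56.3% of all genes. YAP1 and WWTR1, the genes of the 2 coactivators, parted in the KD_OE libraries. WWTR1 stood at 70.8, 64.6 and 64.2 CPM in control, 84.4, 94.6 and 93.7 CPM in KD_NC and 41.3, 37.6 and 37.9 CPM in KD_OE, without overlap and in the same order of groups as CTGF and CYR61. It rose 1.37-fold against control (log2 0.45 ± 0.091, edgeR adjusted p = 0.000837) and was 2.34-fold lower in KD_OE than in KD_NC (log2 -1.22 ± 0.094, edgeR adjusted p = 5.01e-09). YAP1 stood at 220, 220 and 221 CPM in control, 274, 284 and 257 CPM in KD_NC and 330, 315 and 293 CPM in KD_OE, also without overlap but with the last set highest. It was 1.23-fold and 1.42-fold above control in the 2 sets (edgeR adjusted p = 0.00801 and 3.58e-05), and the 1.15-fold difference between them (edgeR adjusted p = 0.0472) was lost under 13 of 16 alternatives, the block included (edgeR adjusted p = 0.0726).

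Among the TEAD genes beside TEAD1, TEAD4 was lower at each step, at 49.2, 53.5 and 55.1 CPM in control, 44.7, 34.9 and 39.8 CPM in KD_NC and 20.3, 20.4 and 22.8 CPM in KD_OE. It was 1.32-fold below control in the former set (edgeR adjusted p = 0.00636, and 0.0535 after correction for GC content and length) and 2.49-fold in the latter (edgeR adjusted p = 9.78e-09). TEAD2 and TEAD3 were added after their values were seen, to complete the family. TEAD2, whose exons overlap those of CD37 and whose counts are uncertain to that extent, was 1.44-fold and 1.90-fold below control (edgeR adjusted p = 0.00664, lost at 0.0538 without the second KD_NC library, and 2e-05), and TEAD3 was not called, at 35.3 ± 2.45, 38.9 ± 4.07 and 37.7 ± 0.435 CPM. The TEAD3 comparisons with control passed after correction for GC content and length (edgeR adjusted p = 0.00168 and 0.000194).

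Among the upstream genes, STK3 was 1.6-fold and 1.82-fold above control in the KD_NC and KD_OE libraries (edgeR adjusted p = 0.000223 and 4.44e-06). After correction for GC content and length the STK3 log2 fold change in KD_OE against control was 0.31 in place of 0.87 (edgeR adjusted p = 0.01). FRMD6, which encodes a FERM protein upstream of the kinases, rose 1.58-fold in KD_NC (edgeR adjusted p = 9.52e-06), and the kinase gene MAP4K4 rose 1.36-fold (edgeR adjusted p = 0.000594). NF2, which encodes the scaffold merlin, and the polarity gene SCRIB fell 1.43-fold and 1.37-fold in KD_NC (edgeR adjusted p = 0.00161 and 0.00126) and stood 1.80-fold and 1.70-fold below control in KD_OE (edgeR adjusted p = 4.3e-06 and 1.76e-06). The fall of SCRIB in KD_NC was lost after correction for GC content and length (log2 -0.14 in place of -0.45, edgeR adjusted p = 0.086). WWC1, which encodes the scaffold KIBRA, was 1.49-fold lower in KD_OE than in KD_NC (edgeR adjusted p = 3.35e-05). FAT4, a large protocadherin gene at no more than 5.95 ± 1.24 CPM in any group, was 3.00-fold above control in KD_OE (edgeR adjusted p = 1.3e-05).

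**Figure D4:**
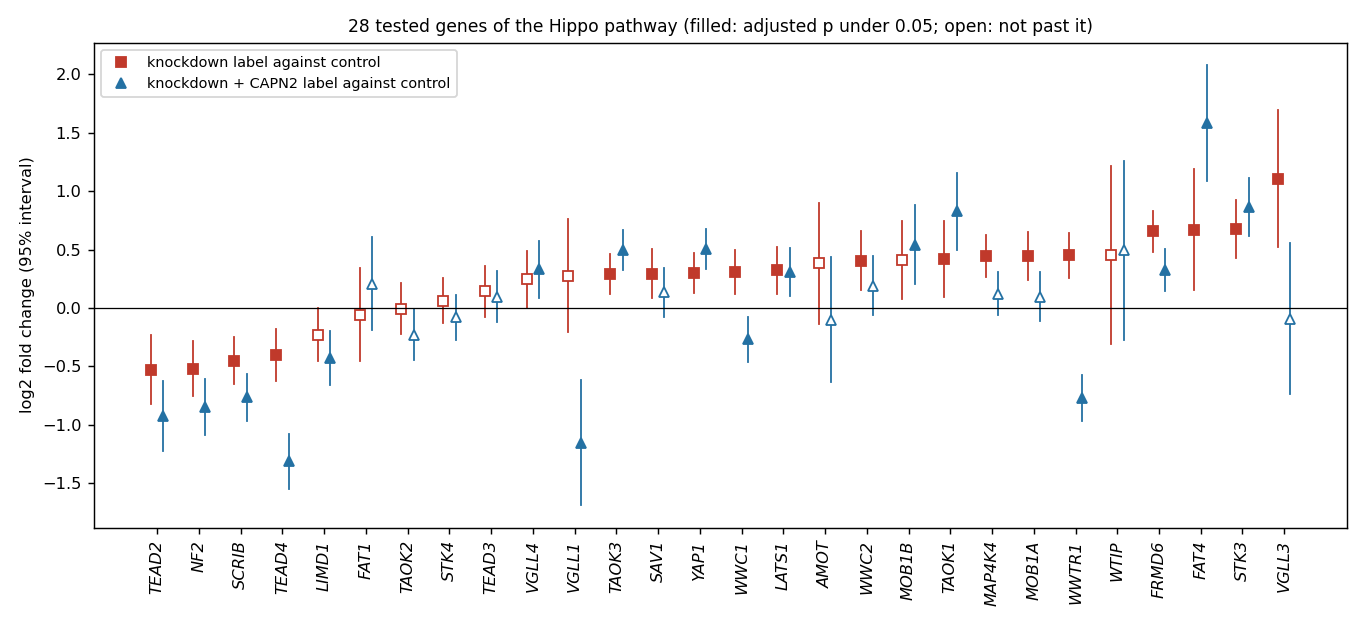
Log2 fold changes against control (vertical axis) with 95% intervals for the 28 tested genes of the Hippo pathway list, ordered by the change in KD_NC (squares), with KD_OE as triangles. WWTR1 and WWC1 are above 0 in KD_NC and below 0 in KD_OE, and TEAD4, NF2 and SCRIB are below 0 in both.

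Relatives and binding partners of the members were read last, with 10 of 14 tested. Against control 3 were higher and 1 lower in the KD_NC libraries, and in KD_OE 1 was higher and 3 lower against the KD_NC set, and 2 higher and 2 lower against control. These 4 of 10 in each comparison stand beside 34.6%, 49.2% and 56.3% of all genes called, near the first share and below the others. WISP2, another CCN gene, had a low level of 0.405, 0.412 and 0.491 CPM in control, 8.02, 6.61 and 7.31 CPM in KD_NC and 0.986, 0.943 and 1.59 CPM in KD_OE. It rose 16.5-fold against control (log2 4.04 ± 0.286, edgeR adjusted p = 5.05e-09) and was 6.21-fold lower in KD_OE than in KD_NC (edgeR adjusted p = 5.82e-08), ending 2.65-fold above control (edgeR adjusted p = 0.00202). TFPI2, which encodes a Kunitz-type inhibitor related to the tissue factor pathway inhibitor, was 2.42-fold and 2.22-fold above control in the 2 sets (edgeR adjusted p = 9.42e-08 and 6.78e-08). TYRO3, a TAM receptor gene like AXL, rose 1.39-fold in KD_NC (edgeR adjusted p = 0.00742) but stood 1.37-fold below control in KD_OE (edgeR adjusted p = 0.00726). ANKRD2, the striated muscle relative of ANKRD1, was 2.03-fold and 3.97-fold below control (edgeR adjusted p = 0.00217 and 1.96e-06).

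**Figure D5:**
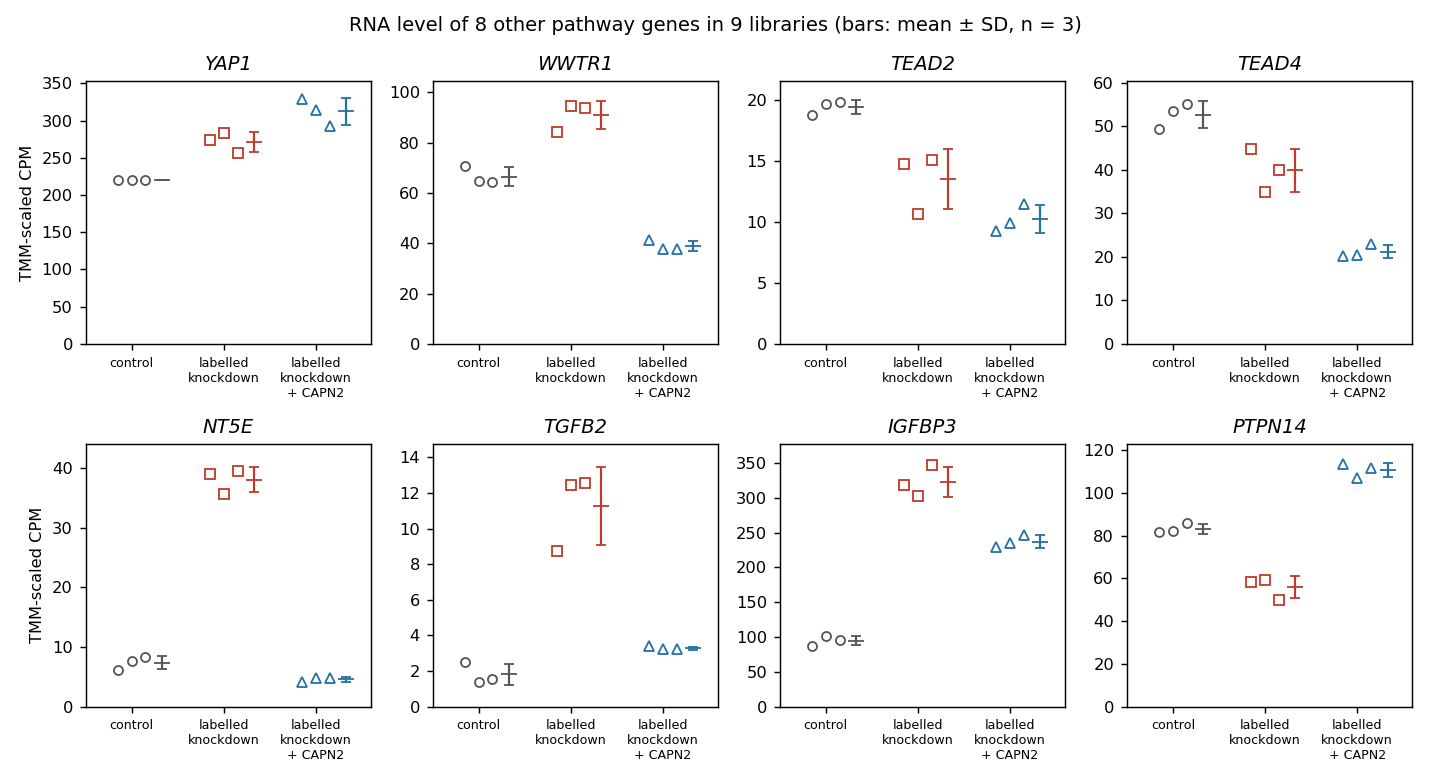
TMM-scaled CPM (vertical axis, linear, from 0) of YAP1, WWTR1, TEAD2, TEAD4, NT5E, TGFB2, IGFBP3 and PTPN14 in the 9 libraries, with symbols, means and SDs for control (circles), KD_NC (squares) and KD_OE (triangles). WWTR1 and NT5E are highest in KD_NC and lowest in KD_OE, and PTPN14 has its lowest and highest levels the other way round.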

How the data were processed

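The authors deposited raw counts of reads per gene for 9 libraries in 3 groups of 3. The submitters' processing notes name HISAT2 2.0.5, StringTie 1.3.3b, featureCounts 1.5.0-p3 and hg19, with no roles. Yet the table's coordinates equal GENCODE v29 on GRCh38 for 58735 of 58735 genes, so GRCh38 is used. No source used here gives strand or multi-mapping settings, so overlapping genes and close paralogs could share reads.

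In R 4.3.3, edgeR 4.0.16 kept 16812 genes (filterByExpr by group, with a minimum count of 10 in some libraries) and scaled by TMM. It fitted 1 robust quasi-likelihood term per group to all 9 libraries, with Benjamini-Hochberg adjustment and a threshold of 0.05. SE is |log2 fold change| over the root of F. The steps were tested on simulated counts in which every group had the same spread and few genes differed. They were not tested on a wider spread in 1 group, as seen here within KD_NC, or on many differing genes. Limits from 3 counts cover counting error only, and p-values only the spread between these libraries. Alternatives were DESeq2 1.42.0, RLE and upper-quartile factors, no filter, the 2 compared groups alone, a replicate block, a GC and length correction (mgcv 1.9.3) and each library left out.

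The members and lists were chosen with earlier results of these data known. The rule named AMIGO2, CAPN2, the members, YAP1, WWTR1, up to 3 risen and 3 fallen genes of lowest adjusted p per list and comparison, and the 2 genes nearest each tested member. Some of these are not described.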

Additional observations from a re-analysis of the deposited data

How the results depend on the processing

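Each of the 16 alternatives was run for 39 named genes in 3 comparisons, and 1745 of 1872 values kept their direction and side of the threshold, while 93 lost a call, 16 gained one and 18 changed sign. Of 240 counts of called genes, 239 stayed within 1.5 times. The exception was the count of Hippo pathway genes in KD_OE against KD_NC, which was 15 and ran from 9 to 15 when single libraries were left out, with 9 without the second KD_OE library. Counts of called members ran from 5 to 6, from 5 to 8 and from 6 to 8 over all alternatives.

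Same-numbered libraries deviated together at correlations of -0.077 to 0.058 in the 3 comparisons, and 1 of 9 correlated best with its own number. With the replicate block 6, 6 and 6 members were called in place of 6, 7 and 6, and 5375, 7912 and 9149 genes in place of 5812, 8278 and 9468.

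No log2 fold change that turned sign had been called, except FRMD6 in KD_OE against control, which was 0.33 and became -0.050 after the GC and length correction. With that correction AMIGO2 and TEAD1 in KD_NC against control became -0.092 and -0.12, STK3 and TEAD3 in KD_OE against KD_NC -0.13 and 0.060, and MAP4K4 in KD_OE against control -0.017. With upper-quartile factors ASAP1 and TEAD3 in KD_OE against KD_NC became 0.031 and 0.014. With single libraries left out, values ran across 0 in KD_NC against control for AMIGO2 (-0.062 to 0.090), AMOTL1 (-0.14 to 0.023) and TEAD1 (-0.042 to 0.17), in KD_OE against KD_NC for TEAD3 (-0.15 to 0.025), ASAP1 (-0.15 to 0.023) and TFPI2 (-0.23 to 0.023), and in KD_OE against control for MERTK (-0.035 to 0.35). The cause was not tested. Among other calls that held after the GC and length correction, some had log2 values over 1.5 times larger or smaller. In KD_NC against control these included AMOTL2 (0.48), YAP1 (0.20), WWTR1 (0.28), TEAD2 (-0.33) and FJX1 (-0.28). STK3 (0.43), NF2 (-0.34) and WWC1 (0.46) were others in that comparison. In KD_OE against control they included SCRIB (-0.48) and TAOK1 (0.31). Without the second KD_NC library GADD45A and FJX1 in KD_NC against control were -0.27 and -0.34. Upper-quartile factors moved the median of all genes by 0.10 on the log2 scale in KD_OE against control. ANKRD1 (24 counts in all) and AJUBA (23 to 56 a library) were limited by depth.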
